A study of Sus scrofa with 6 samples.

Results

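The cholesterol synthesis and lipid regulation genes described here were taken from a list of 42 gene names, of which 33 had a row in a table of 18225 Ensembl pig genes. The list was drawn up by function, with earlier results of these data known. PMVK, MVD, EBP, SREBF1, INSIG2, LRP1, STARD4 and CYP27A1, and CYP51 as a second name of CYP51A1, matched no row and were not analysed here. The 33 genes comprise 15 of cholesterol synthesis, 3 of SREBP control, 3 of lipoprotein uptake, 3 of sterol transport and esterification, 6 of export and oxysterol signalling and 3 of fatty acid synthesis.

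Polyadenylated RNA was sequenced from the brains of 3 Rongchang pigs, a domesticated Chinese breed, and 3 wild boars, with 1 library per animal and all animals 210 days old. The labels give no brain region, sex, origin or housing, and nothing that was given to the animals. The wild boars carry no breed label. The deposited values carry no unit and were taken as FPKM. FPKM is a fragment count scaled by transcript length and by the mapped total, so levels of different genes can be set side by side per length. Differences are Rongchang minus wild boar on the log2(FPKM + 1) scale, tested with limma across 13152 genes, and an adjusted p is a Benjamini-Hochberg value over all of those genes.

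The brain makes nearly all of its own cholesterol, because plasma lipoproteins do not cross the blood-brain barrier. Oligodendrocytes use it for myelin, astrocytes pass it to neurons on lipoproteins, and neurons remove it by hydroxylation. The enzymes share a regulator, the transcription factor SREBP2, which is held in the endoplasmic reticulum by INSIG proteins when sterol is plentiful and escorted to the Golgi by SCAP when it is scarce. Oxysterols activate the LXR receptors, which turn on export genes and the degradation of lipoprotein receptors.

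The defining genes of neurons (SNAP25), astrocytes (GFAP) and oligodendrocytes (CNP) were abundant in all libraries. On the first principal component, which held 38.8% of the variance, Rongchang 2 and wild boar 2 scored 30.5 and 31.6, and the remaining 4 libraries between −19.8 and −10.5. The median gene lay 0.13 log2 units higher in Rongchang than in wild boar, and 77.9% of all genes tested had a difference above 0. Single-gene differences below include this shift unless a median-scaled value is named. Depth per library is unknown, since FPKM values carry no read counts.

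All 15 synthesis genes had higher mean levels in Rongchang than in wild boar brains, with a median difference of 0.41 log2 units against 0.13 for all genes tested. Without wild boar 2 that median was 0.27 against 0.16 for all genes, 14 of the 15 lay above 0 and 10 of the 15 above the median gene. None of the 33 genes passed an adjusted p of 0.05 in limma, where 1 of all genes tested did (0.0076%), and the adjusted p of the 33 ran from 0.724 to 0.99. At an unadjusted p under 0.05, 5 of the 33 were higher in Rongchang, all of them synthesis genes, and 0 were lower, against 5.42% higher and 0.578% lower among all genes tested. The 5 became 8 without Rongchang 2, where 5.85% of all genes were higher, and 2 without Rongchang 3, where 3.94% were. In 10 of the 33 genes (30.3%) every Rongchang library lay above every wild boar library, against 11.4% of all genes tested. Without Rongchang 2 this held for 19 of the 33, against 20.4% of all genes. The opposite order occurred in 0 of the 33 and in 1.12% of all genes. Nothing in the labels says how the animals were reared or sampled. A p-value here therefore sets the breed difference only against the scatter of single libraries within a breed.

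**Figure D1:**
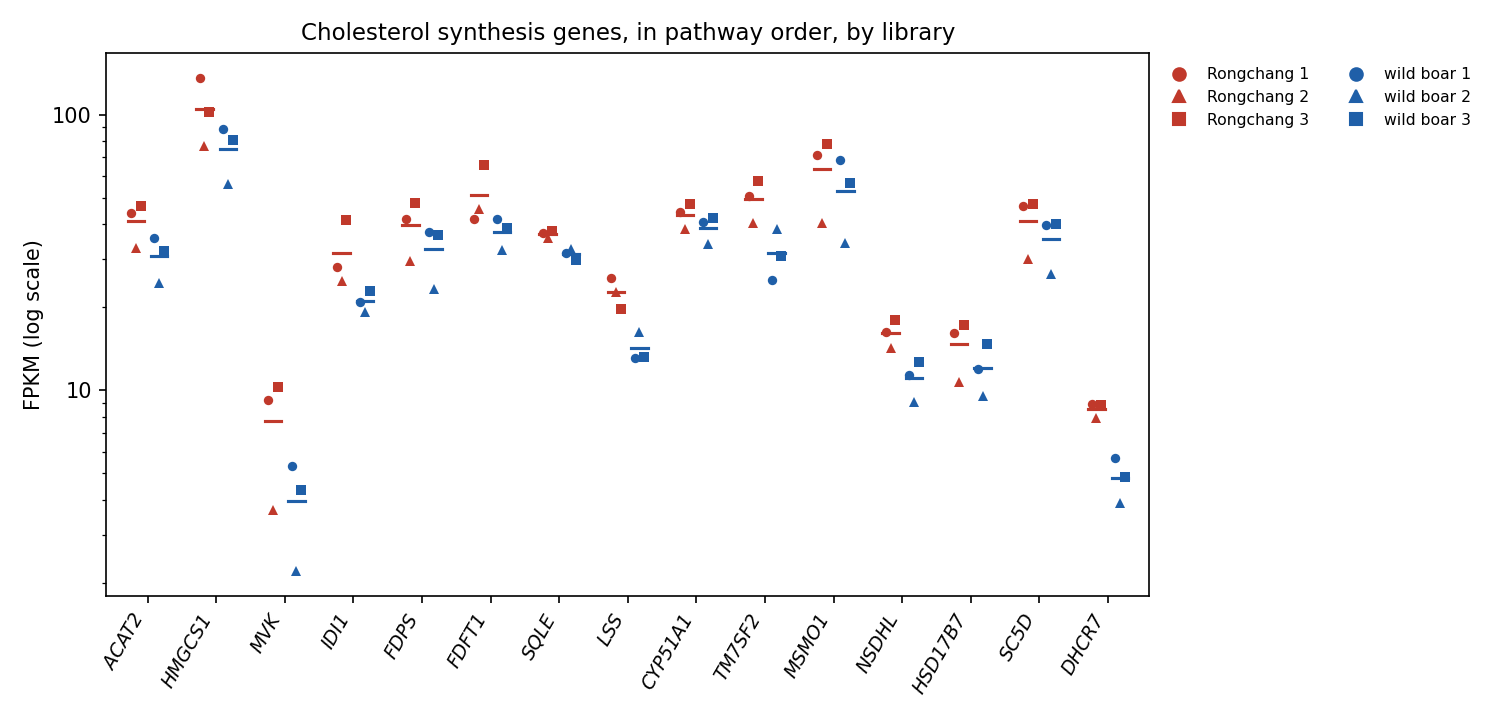
FPKM on a log axis for the 15 cholesterol synthesis genes in pathway order, with Rongchang libraries in red on the left and wild boar libraries in blue on the right of each gene. Marker shape gives the animal number and the short bar the mean of 3 libraries; the bars stand higher in Rongchang for every gene, and triangles (animal 2) are the lowest point of both breeds in 11 genes.

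The synthesis genes were abundant, with a median mean level of 35.9 FPKM against 7.09 FPKM for all genes tested. HMGCS1, which condenses acetyl-CoA with acetoacetyl-CoA at the entry to the pathway, was the most abundant of them. It stood at 136, 76.7 and 102 FPKM in Rongchang 1, 2 and 3, against 88.4, 55.8 and 80.8 FPKM in wild boar 1, 2 and 3. The ranges overlapped, because Rongchang 2 lay below wild boar 1 and 3, and the difference was 0.47 log2 units (SE 0.264, limma adjusted p = 0.794). HMGCS1 made up 18.2% of the summed synthesis FPKM in Rongchang and 17.2% in wild boar. At the other end MVK and DHCR7 held 1.3% and 1.52% of that sum in Rongchang, and 0.889% and 1.11% in wild boar.

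Among the early enzymes, ACAT2, the thiolase that forms acetoacetyl-CoA, averaged 41.1 ± 7.31 FPKM in Rongchang and 30.7 ± 5.82 in wild boar (SD, n = 3 each). Mevalonate kinase, MVK, had the largest difference of all 33 genes at 0.78 log2 units, and also the widest 95% interval, from −0.08 to 1.64. Without 1 library its difference ran from 0.49 (without wild boar 2) to 1.18 (without Rongchang 2), and it was below that of DHCR7 without Rongchang 1, Rongchang 3 or wild boar 2. It stood at 9.24, 3.69 and 10.3 FPKM in Rongchang, against 5.31, 2.21 and 4.35 FPKM in wild boar. The animals numbered 2 were the lowest of their breed by a wide margin, and the breeds overlapped only through Rongchang 2.

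The isomerase IDI1, which makes the activated isoprene unit, stood at 28, 24.9 and 41.6 FPKM in Rongchang, against 20.9, 19.3 and 22.9 FPKM in wild boar. The breeds did not overlap, with Rongchang 3 far above the rest (difference 0.53, SE 0.21, unadjusted p = 0.0352, limma adjusted p = 0.789). Farnesyl diphosphate synthase, FDPS, averaged 39.6 ± 9.34 and 32.4 ± 7.97 FPKM in Rongchang and wild boar. Squalene synthase, FDFT1, which commits the pathway to sterols, averaged 51.0 ± 13 FPKM in Rongchang and 37.6 ± 4.95 FPKM in wild boar. Both of these overlapped between the breeds.

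Squalene epoxidase, SQLE, regarded as a control point of the sterol branch, had the smallest relative spread of the synthesis genes within each breed. It stood at 37.2, 35.7 and 37.7 FPKM in Rongchang, against 31.6, 32.6 and 29.6 FPKM in wild boar, a coefficient of variation of 2.85% and 4.82%. The breeds did not overlap, and the difference was small, at 0.23 log2 units (95% interval −0.09 to 0.55). Lanosterol synthase, LSS, which closes the sterol rings, stood at 25.6, 22.8 and 19.7 FPKM in Rongchang, against 13.1, 16.3 and 13.2 FPKM in wild boar. The breeds did not overlap, and wild boar 2 came closest to Rongchang 3, with a difference of 0.64 log2 units (SE 0.166, unadjusted p = 0.00471, limma adjusted p = 0.737).

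The later steps strip methyl groups and shift double bonds. DHCR7, which makes cholesterol in the last step of its branch, had the smallest unadjusted p of the 33 genes. It stood at 8.92, 7.94 and 8.85 FPKM in Rongchang, against 5.67, 3.92 and 4.86 FPKM in wild boar. The lowest Rongchang library was well above the highest wild boar library (difference 0.73, SE 0.16, 95% interval 0.36 to 1.1, unadjusted p = 0.00185, limma adjusted p = 0.724). The sterol reductase TM7SF2 stood at 50.8, 40.3 and 57.3 FPKM in Rongchang, against 25.2, 38.3 and 30.6 FPKM in wild boar. Its breeds were apart by a narrow gap between the animals numbered 2, within which its log2 difference was 0.07, against 0.98 for the animals numbered 1 and 0.88 for those numbered 3. The sterol dehydrogenase NSDHL stood at 16.3, 14.2 and 18 FPKM in Rongchang, against 11.4, 9.06 and 12.7 FPKM in wild boar, also without overlap (difference 0.52, SE 0.173).

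The remaining demethylation and desaturation genes overlapped between breeds. The lanosterol demethylase CYP51A1 averaged 43.4 ± 4.36 FPKM in Rongchang and 38.9 ± 4.41 in wild boar, and its difference of 0.15 was the smallest of the synthesis genes. The methylsterol oxidase MSMO1 averaged 63.2 ± 20 and 53.0 ± 17.4 FPKM in the same order, with the least certain estimate after MVK (95% interval −0.49 to 1.0). HSD17B7, the sterol ketone reductase, averaged 14.7 ± 3.49 FPKM in Rongchang and 12.1 ± 2.61 in wild boar. The sterol desaturase SC5D averaged 41.2 ± 9.83 FPKM in Rongchang and 35.4 ± 7.68 in wild boar. The late steps NSDHL and DHCR7 had differences of 0.52 and 0.73, and HSD17B7 and SC5D, which act between them, 0.26 and 0.21, with overlapping 95% intervals, and contrasts between genes were not tested.

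**Figure D2:**
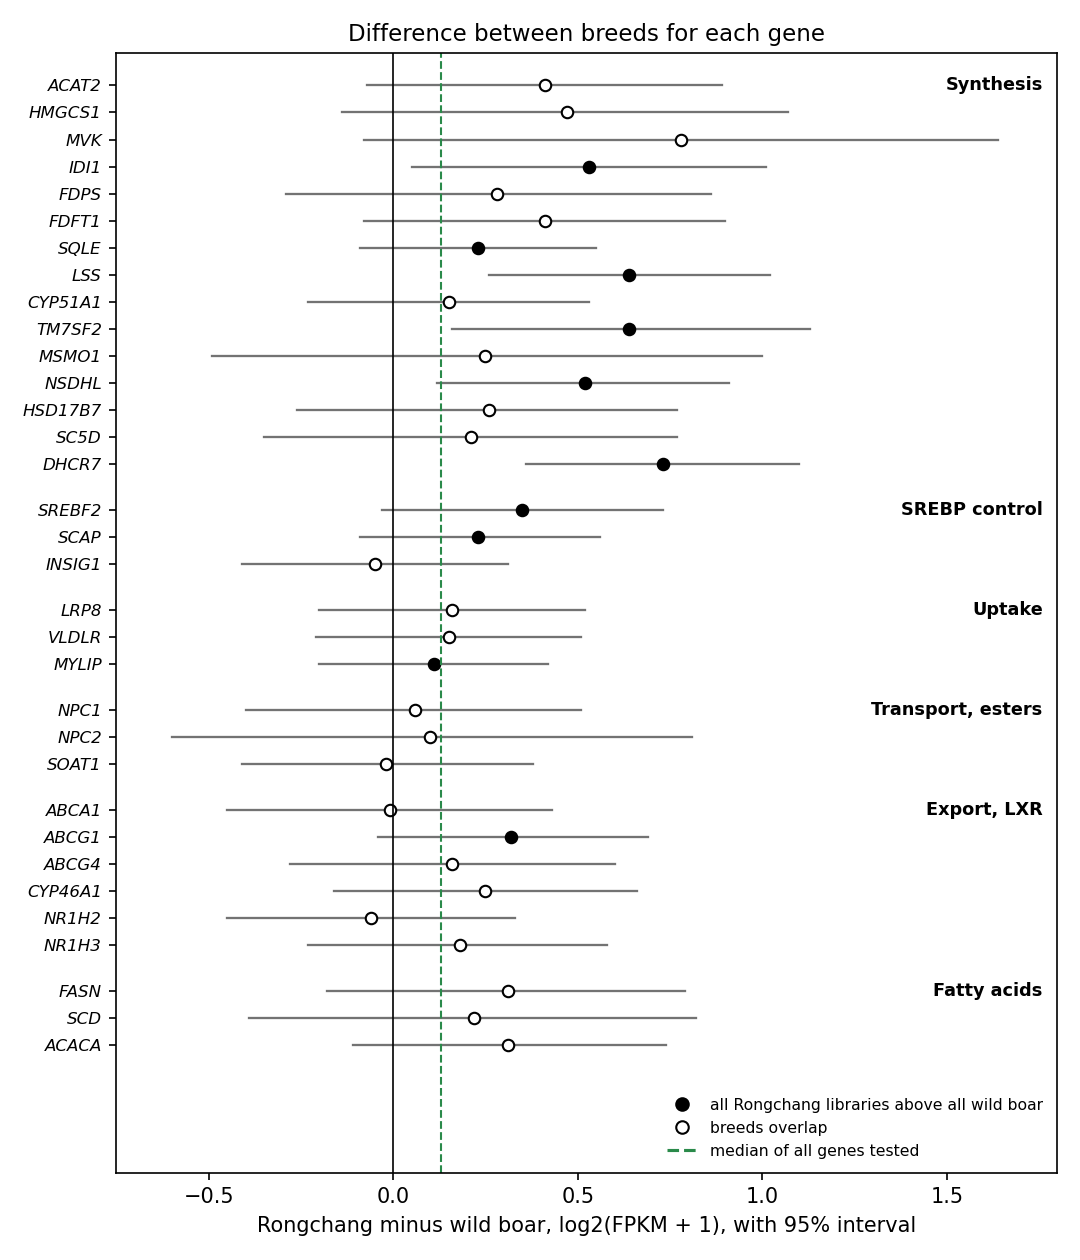
Difference between breeds (Rongchang minus wild boar, log2(FPKM + 1)) with its 95% interval from limma for each of the 33 genes, grouped by role. Filled points mark the 10 genes whose breeds did not overlap, and the dashed line marks the median of all genes tested at 0.13, which all 15 synthesis genes exceed when all 6 libraries are used (10 without wild boar 2, 12 without Rongchang 1 or without Rongchang 3).

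After each library was scaled to the same median, 14 of the 15 synthesis genes kept a difference above 0, with a median of 0.24 against −0.02 for all genes tested. CYP51A1 was the exception at −0.02. Under that scaling the breeds stayed apart for DHCR7 and LSS only, 2 of the 33 genes (6.06%), against 3.87% of all genes with Rongchang above wild boar. The opposite order held for 0 of the 33 and for 5.03% of all genes. Median-scaled differences were 0.58 for DHCR7 and 0.48 for LSS, with a limma adjusted p of 1 for both. The separation of IDI1, SQLE, TM7SF2, NSDHL, SREBF2, SCAP, MYLIP and ABCG1 was not kept.

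The animals of both breeds carry the numbers 1 to 3, and libraries of the same number deviated together. Within each number, 14 of the 15 synthesis genes (93.3%) were higher in Rongchang in all 3 pairs, against 38.5% of all genes tested. FDFT1 was the exception, at 41.7 FPKM in Rongchang 1 against 41.8 FPKM in wild boar 1. The main limma fit did not pair the animals. Pairing by number was read from these same values, so fits with it are alternatives and not separate support. With the number as a replicate block, 17 of the 33 genes had an unadjusted p under 0.05, all higher in Rongchang, against 16% of all genes tested. After median scaling with the block the count was 8, all synthesis genes, against 5.02% of all genes. No member passed with the block in limma, where the smallest adjusted p was 0.228.

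**Figure D3:**
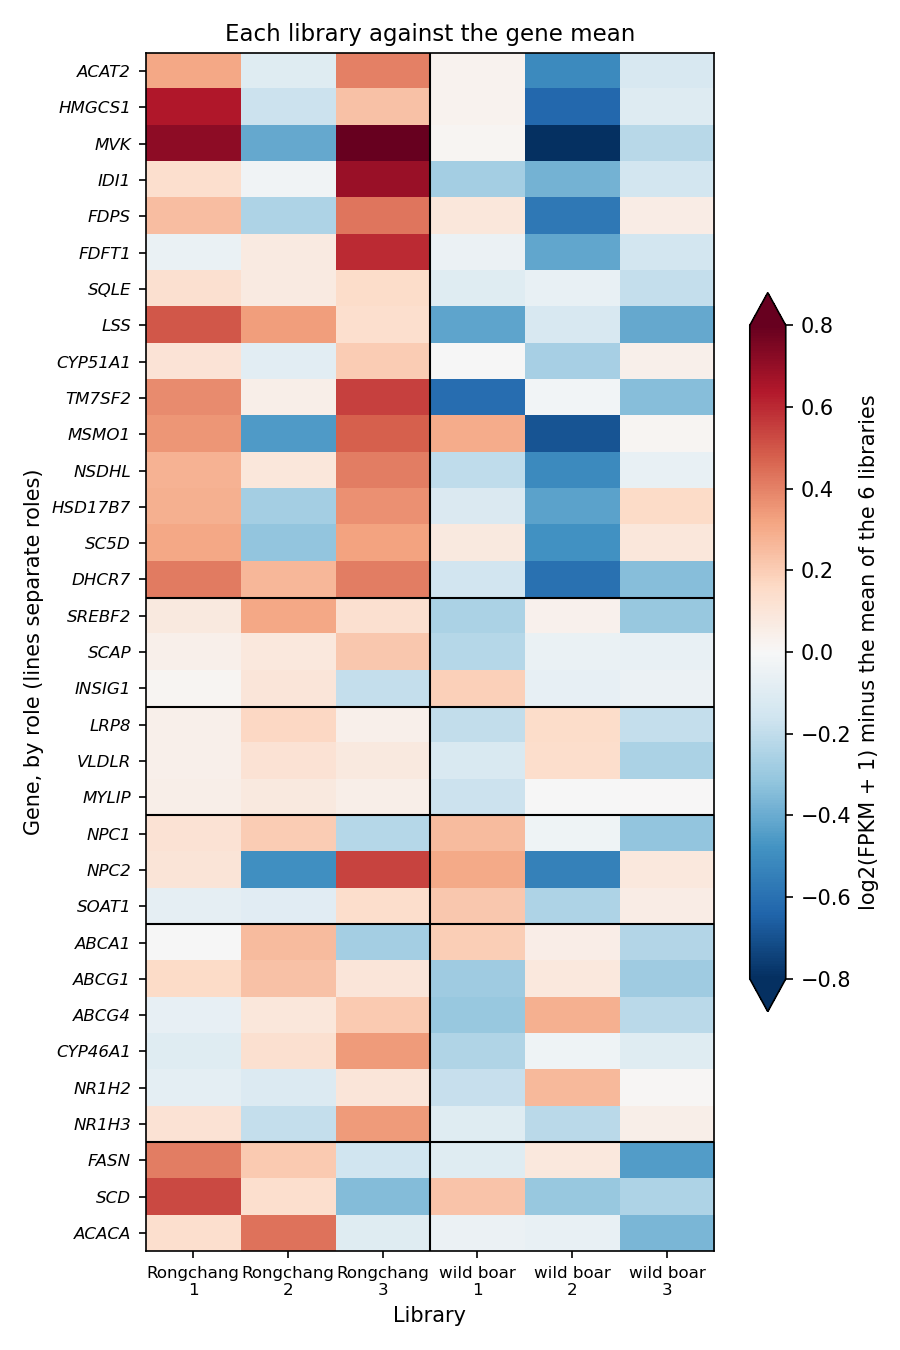
log2(FPKM + 1) of each gene in each library minus that gene's mean over the 6 libraries, with Rongchang libraries left of wild boar libraries and black lines between roles. In the synthesis block at the top, Rongchang 1 and 3 are the reddest columns and wild boar 2 the bluest, and in none of the control and uptake genes below are both libraries numbered 2 the lowest of their breed.

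The animals numbered 2 had low levels of synthesis genes in both breeds. In 11 of the 15 (73.3%) Rongchang 2 was the lowest Rongchang library and wild boar 2 the lowest wild boar library, against 21.4% of all genes tested. The summed level of the 15 genes was 618, 453 and 645 FPKM in Rongchang 1, 2 and 3, against 478, 361 and 460 FPKM in wild boar 1, 2 and 3. The sums overlapped between breeds, because Rongchang 2 lay below wild boar 1 and 3. Without both libraries numbered 2, an alternative chosen after the data were seen, 23 of the 33 genes had Rongchang above wild boar in all 4 libraries, against 38.1% of all genes. None of the 33 passed in limma (smallest adjusted p 0.436), and 9 were higher at an unadjusted p under 0.05, against 8.11% of all genes.

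Cell type markers moved with the animal number as well. The summed level of 9 oligodendrocyte and myelin markers was 2203, 1798 and 1939 FPKM in Rongchang, against 2336, 1381 and 1806 FPKM in wild boar. Of these 9, 2 (TSPAN2 and CNP, 22.2%) had Rongchang above wild boar in every library, against 11.4% of all genes tested. The other 7 overlapped, and none was at 0 FPKM. MOG and GJB1 were the 2 with a difference below 0, at −0.13 and −0.24. The 9 astrocyte markers summed to 3055 to 3623 FPKM in Rongchang and 2599 to 3737 FPKM in wild boar. The sum was lowest in animal 2 of each breed. ALDH1L1 and CHRDL1 (22.2%) had every Rongchang library above every wild boar library, against 11.4% of all genes tested. Their differences were 0.75 and 0.38, both at an unadjusted p under 0.05 in limma, where 5.42% of all genes were higher. The other 7 overlapped, and GFAP, SLC1A3 and SOX9 lay below 0, at −0.11, −0.03 and −0.23. The 10 neuron markers summed to 2204, 2923 and 3010 FPKM in Rongchang, against 2062, 2910 and 2689 FPKM in wild boar. Their sum was lowest in animal 1 of each breed. In 5 of the 10 both libraries numbered 2 were the highest of their breed, against 28.5% of all genes tested. All 10 overlapped between breeds, against 87.5% of all genes, and none was at 0 FPKM. The part of cell makeup in the synthesis levels was not tested, and in tissue RNA fewer cells of a type and less RNA per cell cannot be told apart.

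The 7 microglia markers summed to 58.2 to 96.0 FPKM in Rongchang and 46.7 to 95.7 FPKM in wild boar. All 7 overlapped between breeds, against 87.5% of all genes tested. The 8 endothelial and pericyte markers lay opposite to the synthesis genes, with a median difference of −0.27. Of the 8, 7 lay below 0, against 22.1% of all genes tested, and all 8 lay below the median gene. They summed to 86.5, 61.4 and 52.0 FPKM in Rongchang, against 93.0, 65.9 and 74.5 FPKM in wild boar, lower in Rongchang within each animal number. PDGFRB was the 1 marker without overlap, higher in every wild boar, an order that 1.12% of all genes had. In limma none of the 8 passed, with 0 under an unadjusted p of 0.05, where PDGFRB lay at 0.05. With the replicate block 2 of the 8 were lower at an unadjusted p under 0.05 in limma, against 1.41% of all genes. With the block and median scaling 5 were, against 5.47%. The part of this list in the synthesis levels was not tested. The 3 red cell markers summed to 68.5 to 191 FPKM in Rongchang and 58.5 to 276 FPKM in wild boar, and HBM was listed at 0 in wild boar 2. Mitochondrially encoded messenger RNAs made up 45.2%, 39.9% and 30% of all FPKM in Rongchang, against 46.8%, 41.0% and 43.6% in wild boar. Of the FPKM outside those genes, the synthesis genes made up 0.187%, 0.133% and 0.161% in Rongchang, against 0.131%, 0.106% and 0.134% in wild boar, so that wild boar 3 was the 1 wild boar above a Rongchang library. With every library scaled to the FPKM outside the mitochondrially encoded genes, the synthesis median was 0.39, against 0.12 for all genes. Rongchang lay above wild boar in every library for 7 of the 33 genes, against 9.39% of all genes. None of the 33 passed in limma under that scaling, and 5 had an unadjusted p under 0.05, where 4.08% of all genes were higher. Any part of mitochondrial RNA in the differences beyond this scaling was not tested.

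**Figure D4:**
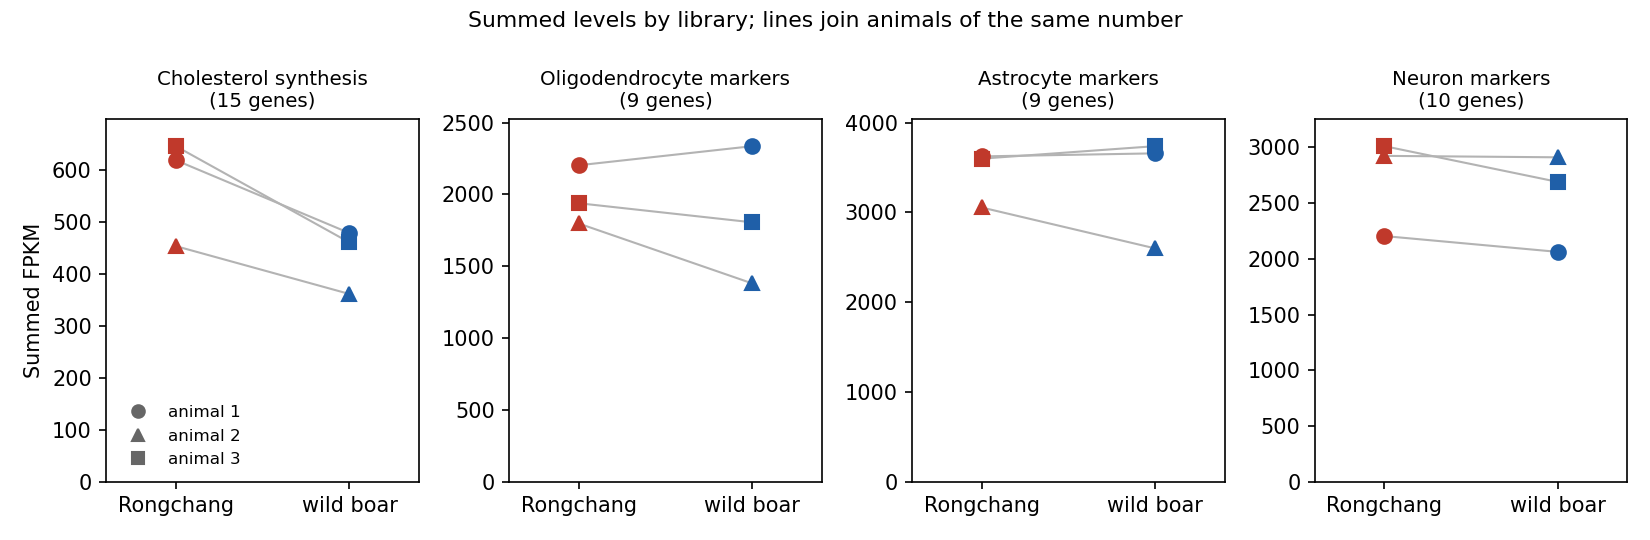
Summed FPKM of the 15 synthesis genes and of oligodendrocyte, astrocyte and neuron markers, with Rongchang left, wild boar right and a line joining animals of the same number. Every synthesis line falls to the right, while the marker lines cross or run both ways for oligodendrocytes and astrocytes and run slightly downward for neurons.

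Of the regulators, SREBF2 encodes SREBP2 itself. It stood at 46.3, 54.4 and 47.9 FPKM in Rongchang, against 36.6, 44.7 and 35.3 FPKM in wild boar. The breeds did not overlap (difference 0.35, SE 0.165, limma adjusted p = 0.789), and the animals numbered 2 were the highest of each breed, where the synthesis sum was lowest. The escort protein gene SCAP stood at 15.3, 15.8 and 17.4 FPKM in Rongchang, against 12.5, 14.3 and 14.2 FPKM in wild boar, again without overlap (difference 0.23, SE 0.142). INSIG1, which retains SREBP in the endoplasmic reticulum and is itself a target of it, averaged 12.8 ± 1.41 FPKM in Rongchang and 13.3 ± 1.44 in wild boar. Its difference of −0.05 had a 95% interval from −0.41 to 0.31.

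**Figure D5:**
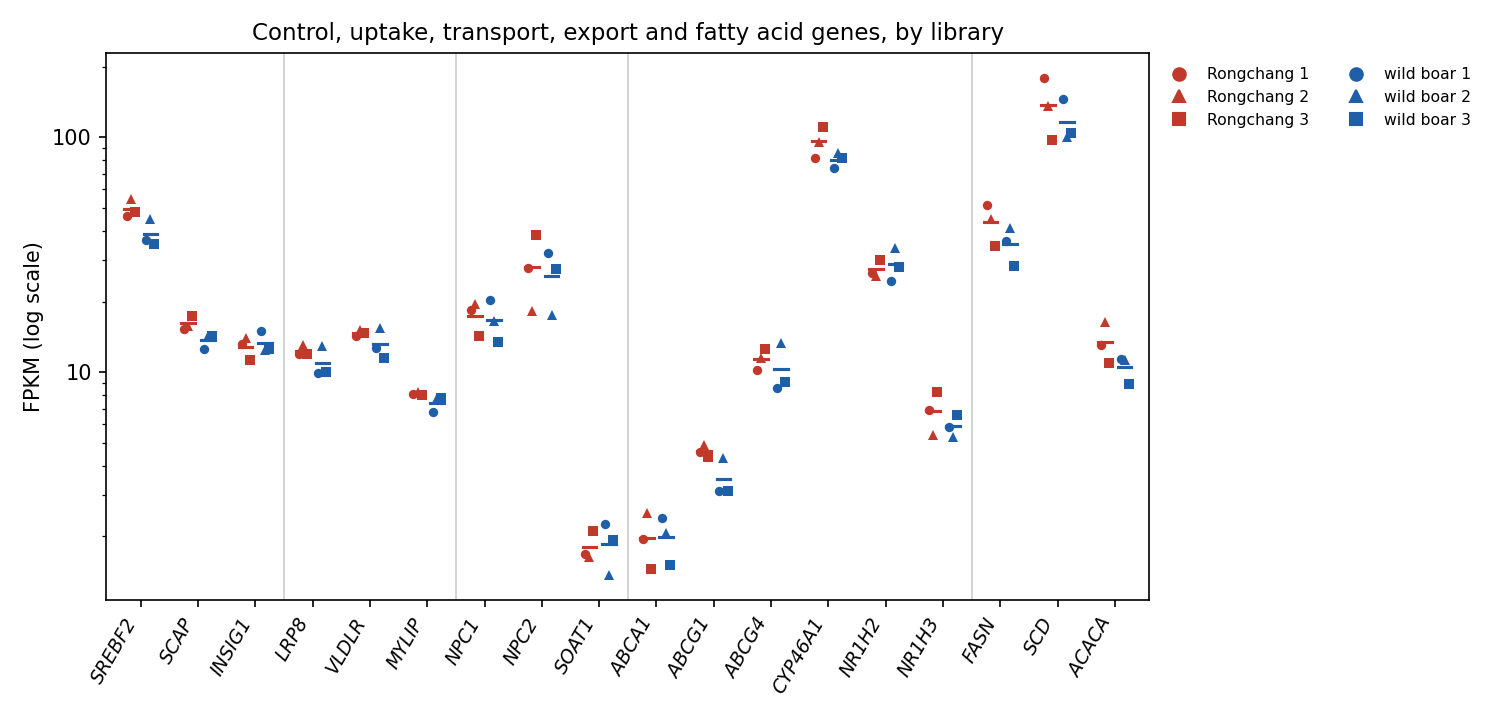
FPKM on a log axis for the 18 genes outside synthesis, drawn as for the synthesis genes, with vertical lines between SREBP control, uptake, transport and esterification, export and LXR, and fatty acid synthesis. Rongchang points (left, red) and wild boar points (right, blue) overlap for 14 of the 18 genes (77.8%), against 87.5% of all genes tested.

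For lipoprotein uptake, VLDLR, a receptor for apolipoprotein E particles and reelin, was the most abundant member. It stood at 14.3, 15.1 and 14.7 FPKM in Rongchang, against 12.7, 15.4 and 11.5 FPKM in wild boar. The Rongchang values lay close together and wild boar 2 was above all of them. LRP8, the second reelin receptor, averaged 12.3 ± 0.667 FPKM in Rongchang and 11 ± 1.7 in wild boar. MYLIP, the LXR-induced ubiquitin ligase that sends such receptors for degradation, stood at 8.04, 8.24 and 8.03 FPKM in Rongchang, against 6.77, 7.74 and 7.75 FPKM in wild boar. Its breeds did not overlap, yet its difference of 0.11 was below that of the median gene, and it was −0.04 after median scaling.

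The transport and esterification genes showed the least difference of any role, with a median of 0.06. NPC2, which binds cholesterol in the lysosome and passes it to NPC1, stood at 27.9, 18.2 and 38.2 FPKM in Rongchang, against 32.2, 17.5 and 27.5 FPKM in wild boar. The breeds overlapped throughout, and the animals numbered 2 were lowest in both. NPC1, the lysosomal membrane exporter, averaged 17.4 ± 2.8 FPKM in Rongchang and 16.7 ± 3.43 in wild boar. SOAT1, which esterifies cholesterol for storage, was the least abundant of the 33 genes and averaged 1.81 ± 0.254 FPKM in Rongchang and 1.86 ± 0.457 in wild boar. It nonetheless had at least 1 FPKM in all 6 libraries, and all 33 genes passed the filter on low values.

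In the export group, CYP46A1, which hydroxylates cholesterol in neurons so that it can leave the brain, was among the most abundant of the 33 genes. It stood at 81.8, 95.7 and 111 FPKM in Rongchang, against 73.9, 85.6 and 81.7 FPKM in wild boar. Wild boar 2 lay above Rongchang 1, so the breeds overlapped (difference 0.25, 95% interval −0.16 to 0.66). ABCA1, the LXR-driven pump that loads cholesterol onto apolipoproteins, stood at 1.95, 2.52 and 1.45 FPKM in Rongchang, against 2.39, 2.07 and 1.51 FPKM in wild boar. Its means were nearly equal and its difference was −0.01 (95% interval −0.45 to 0.43).

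ABCG1, another LXR target that exports sterol to lipoproteins, stood at 4.57, 4.9 and 4.36 FPKM in Rongchang, against 3.11, 4.31 and 3.11 FPKM in wild boar. The breeds were apart by a small gap between Rongchang 3 and wild boar 2 (difference 0.32, SE 0.157, limma adjusted p = 0.789). Its relative ABCG4 averaged 11.5 ± 1.21 FPKM in Rongchang and 10.3 ± 2.62 in wild boar. Of the LXR receptors, NR1H2 (LXR beta) averaged 27.4 ± 2.24 FPKM in Rongchang and 28.8 ± 4.67 in wild boar. NR1H3 (LXR alpha) averaged 6.85 ± 1.44 FPKM in Rongchang and 5.9 ± 0.631 in wild boar. Among LXR targets, ABCA1, MYLIP and ABCG1 had differences of −0.01, 0.11 and 0.32.

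Among the fatty acid genes, the desaturase SCD was the most abundant of all 33 genes by the mean of the 6 libraries. SCD stood at 179, 136 and 97.0 FPKM in Rongchang, against 145, 99.8 and 104 FPKM in wild boar. The breeds overlapped fully, with Rongchang 3 the lowest of all 6 libraries, while the same library was the highest of its breed in 12 of the 15 synthesis genes. Fatty acid synthase, FASN, averaged 43.8 ± 8.64 FPKM in Rongchang and 35.1 ± 6.46 in wild boar (difference 0.31, SE 0.211). Acetyl-CoA carboxylase, ACACA, which supplies it with malonyl-CoA, averaged 13.5 ± 2.68 FPKM in Rongchang and 10.6 ± 1.4 in wild boar (difference 0.31, SE 0.184). The 18 genes outside synthesis had a median difference of 0.16, close to the 0.13 of all genes tested, and after median scaling 8 of them lay above 0 and 10 below.

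A further list of 36 genes of sterol and lipid metabolism had 29 with a row, all tested. None of the 29 passed in limma, 0 had an unadjusted p under 0.05, and their median difference was 0.12. LRPAP1, a chaperone of lipoprotein receptors, had every Rongchang library above every wild boar library and averaged 85.3 ± 12.3 FPKM in Rongchang and 67.7 ± 4.37 in wild boar (difference 0.32). The late endosomal sterol-binding protein gene STARD3 averaged 7.72 ± 1.27 FPKM in Rongchang and 5.86 ± 0.891 in wild boar (difference 0.34), and FAXDC2 averaged 1.13 ± 0.0441 and 0.669 ± 0.474 FPKM in the same order (0.39). FAXDC2 lay near the 1 FPKM bound of the filter, at 1.18, 1.09 and 1.11 FPKM in Rongchang. In wild boar it stood at 1.13, 0.702 and 0.179 FPKM, so the breeds overlapped.

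The other genes of that list with the smallest unadjusted p were ACLY, NCEH1 and FABP7. ACLY, which makes cytosolic acetyl-CoA, averaged 24.7 ± 2.37 FPKM in Rongchang and 19.7 ± 5.05 in wild boar (difference 0.33). The cholesteryl ester hydrolase gene NCEH1 averaged 15.5 ± 2.13 FPKM in Rongchang and 12.5 ± 2.48 in wild boar (0.30). FABP7, the brain fatty acid binding protein of astrocytes and radial glia and the most abundant of the list, lay the other way and averaged 105 ± 28.9 FPKM in Rongchang brains and 137 ± 33.9 in wild boar brains (−0.39). ACSS2, another source of acetyl-CoA, and ME1, a source of NADPH, had differences of −0.00409 and −0.01.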

How the data were processed

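Total RNA was extracted with TRIzol and poly(A) libraries that mark strand with dUTP were sequenced as paired reads, per the labels' protocols. TopHat2 2.0.11, Cufflinks 2.2.1 and Cuffdiff are named per the submitters' processing notes. No build, annotation or strand setting is stated there, so coordinates are left out. The deposited table was taken as FPKM, since its header gives no unit and the values are decimals summing to 568921 to 687359 per library. Low values showed no common read step (at most 23.7% of ratios between any 2 libraries under 0.15 FPKM fell within 0.04 log2 units), so depth is unknown.

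Names were looked up by Ensembl identifier and found for 10937 of 18225 identifiers, keeping the row with the highest mean per symbol. Groups follow the sample titles. limma 3.58.1 in R 4.3.3 was run on log2(FPKM + 1), two-sided, with a mean-variance trend, keeping genes that reached 1 FPKM in 3 or more of the 6 libraries. The members and lists were chosen with earlier results of these data known. Every member is named, with values per library where breeds did not overlap, for the most abundant member of each role and for a few regulators, and MVK was added after its values were seen. Promoter motifs were not searched, since no sequence was used here. Of the further lipid genes, 6 with the smallest p and the most abundant are named, and ACSS2 and ME1 were added after their values were seen.

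After subtraction of the breed mean, libraries 1, 2 and 3 of the breeds correlated with each other at 0.28, 0.59 and 0.37, above the bound of 0.1. The replicate block therefore pairs the animals by number from the data alone, as an alternative to the main fit, which was unpaired. Rongchang 1 with wild boar 3 also reached 0.12. On 20 simulated tables of 13152 genes 47% of genes changed 2-fold and 88.2% of those changed 4-fold were recovered, at 6 false calls a table. The simulated scatter was independent between libraries, unlike that of the same-numbered animals, and spreads were shuffled over genes. The largest difference of a member, 0.78 log2 units, was below 2-fold, so these rates do not apply to the differences given here. In the RefSeq table of Sscrofa11.1, 30 of the 33 genes could be placed, and ACAT2, NPC1, NR1H3 and ACACA overlap another protein-coding gene and SC5D a noncoding one, so their values are uncertain.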

Additional observations from a re-analysis of the deposited data

How the results depend on the processing

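Under 18 alternatives no member passed in limma, and the median difference of the synthesis genes stayed above 0, from 0.24 to 0.56. Leaving out single libraries gave medians of 0.27 (without wild boar 2) to 0.56 (without Rongchang 2). It also gave 10 to 19 members with Rongchang above wild boar. These were 10 without wild boar 3, against 16.4% of all genes, and 19 without Rongchang 2, against 20.4%. Without wild boar 2 they were 14, against 28.9%. Genes called in the whole table then numbered 1 to 4 (4 without Rongchang 1, Rongchang 2 or wild boar 1). The whole table gave 3 calls with a pseudocount of 0.1, without the mitochondrial genes or without both libraries numbered 2, and 0 with a minimum mean of 5 FPKM, where 376 genes were higher and 29 lower at an unadjusted p under 0.05. Members with Rongchang above wild boar numbered 2 with median scaling, with or without the replicate block, against 3.87% of all genes. They numbered 5 with quantile normalization, against 3.99%, and 23 without both libraries numbered 2, against 38.1%. Quantile normalization left 1 member with wild boar above, against 4.71% of all genes. The median of the genes outside synthesis was −0.000619 with median scaling, with or without the block, and 0.01 with quantile normalization. The replicate block changed no call. At an unadjusted p under 0.05, library weights gave 10 members, with 10.4% of all genes higher, and leaving out Rongchang 3 left 2 (LSS and DHCR7).

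Of 33 members, 21 kept their direction throughout. With median scaling, with or without the replicate block, the difference was −0.02 for CYP51A1, −0.00104 for LRP8, −0.01 for VLDLR, −0.04 for MYLIP, −0.10 for NPC1, −0.06 for NPC2 and −0.000201 for ABCG4. Quantile normalization gave −0.03 for MYLIP, −0.08 for NPC1 and −0.04 for NPC2, and library weights −0.02 for NPC2 and 0.04 for ABCA1. Without both libraries numbered 2, NPC1 was at −0.03 and NR1H2 at 0.10. Leaving out single libraries gave −0.03 to 0.54 for MSMO1, −0.11 to 0.03 for INSIG1, −0.08 to 0.20 for NPC1, −0.14 to 0.37 for NPC2, −0.15 to 0.09 for SOAT1, −0.14 to 0.12 for ABCA1 and −0.17 to 0.06 for NR1H2. The cause of these reversals was not tested.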
